A study of Mus musculus with 68 samples.

Results

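xNOD is the F1 cross of a C57BL/6J (B6) mother with a NOD/ShiLtJ (NOD) father, and its cells were mouse embryonic fibroblasts (MEFs) carrying 1 genome from each parent. The cross is represented by 5 of the 68 libraries of the series, 3 from control cells and 2 from cells treated with tunicamycin (TM), and these were taken from the table of the cross by the genotype, treatment and replicate number of each library. Cells were exposed to 2 ug/ml TM during 4 h, or to the vehicle (0.1% DMSO) as control. The founder strains B6 (2 control and 2 TM libraries) and NOD (2 control and 3 TM libraries), treated in the same way, served as the parents of the comparison, and 23 libraries of the other 4 crosses with a B6 mother (x129, xCAST, xNZO and xWSB) as a further one. Each culture mixed cells of several embryos from a single litter, so an animal is not a unit of these data. Treatments were run in triplicate according to the methods, and the study terms its replicates biological. However, no label gives each library an embryo pool of its own, so p-values measure the spread between these libraries, which may be technical. The authors also screened each strain by principal components and left out any sample that fell outside its treatment group. TM replicate 3 of xNOD is absent from the series. The kept libraries were thus chosen in part for separation of TM from control. Such a choice can narrow the spread and favour groups without overlap, and its effect on the p-values was not tested.

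TM blocks the first step of N-linked glycosylation, and unglycosylated proteins then misfold in the lumen of the endoplasmic reticulum (ER). The ER carries sensors for this condition, IRE1 (gene Ern1), PERK (Eif2ak3) and ATF6 (Atf6). IRE1 splices the mRNA of Xbp1 and degrades other ER-bound mRNAs, PERK lowers translation while favouring that of Atf4, and ATF6 is cleaved to a transcription factor. Together these branches, known as the unfolded protein response (UPR), raise chaperones, folding enzymes and ER-associated degradation (ERAD), and under lasting stress the factor CHOP (Ddit3) and its targets. In fibroblasts the response can also reach NF-kB and secreted chemokines.

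The deposited values are reads per gene scaled to the library size, which are not divided by gene length, so levels were never compared between genes. Totals on genes were 14343015 to 19761667 reads in the xNOD controls and 12280032 and 13530410 reads in the TM libraries, and 1 read was worth 0.0400 to 0.0611 units of value. TM was compared with control with limma on log2(value + 0.1), keeping a gene if 2 or more of the 5 libraries reached 0.5. A gene was called induced, or lowered, at a Benjamini-Hochberg adjusted p below 0.01 with a change of at least 1.5 fold. All log2 changes below are TM minus control on that scale, on which low genes show less than their true change.

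Some libraries stood apart. The summed value of 5 endothelial markers was 19.0 in control replicate 3 against 4.99 and 5.28 in the other controls and 6.84 and 5.14 in the TM libraries. The 3 of 5 epithelial markers listed in the table summed to 61.2 in that library against 26.5 and 27.0, with 32.1 and 29.7 after TM, and the 6 of 14 myeloid markers listed to 28 against 15.1 and 10.2, with 13.5 and 6.76 after TM. Counts of called genes without this library are given below for xNOD and for its differences from the parents, and its part in single results was not tested except where stated. Among the marker genes, Krt8, a keratin of simple epithelia, had 1.17, 1.12 and 14.3 in the controls in replicate order and 0.611 and 1.28 after TM. The label of fibroblasts fitted the 12 fibroblast markers, all of which were listed and whose summed value was 22667 to 23210 in controls. After TM that sum was 13164 and 16958. Of 11 markers tested, whose transcripts have a median of 5423 bases, 2 were lowered, against 4.60% of all tested genes. The median change was -0.46. It was -0.22, with no marker lowered, when a smooth function of GC content and transcript length was first subtracted from each library (the correction for GC content and length). In the sum, a lower number of fibroblasts and less of these RNAs per cell cannot be told apart in bulk RNA. The TM libraries differed from each other by at least 1.5 fold in 2385 genes. Edem3, an ERAD mannosidase, was at 2.75 in TM replicate 1 and at 21.6 in TM replicate 2. The methods describe the embryos as female, but the Y-linked gene Ddx3y had 14, 17.6 and 16.8 in the controls and 22.5 and 24.2 after TM, while Xist, which is made from the inactive X chromosome, had 76.6, 99.5 and 121 and then 40.7 and 49.5. Each of the 5 libraries therefore held reads of both kinds.

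Of 12468 genes tested in xNOD, 460 (3.69%) were induced and 573 (4.60%) were lowered. Among the induced genes 305 changed by less than 2 fold, 126 by 2 to 4 fold and 29 by 4 fold or more, and among the lowered genes these numbers were 314, 242 and 17. In every one of these genes the TM libraries lay beyond all 3 controls. This was also so for 27.8% of all tested genes on the upper side and 33.4% on the lower side. The screen of libraries described above may raise these shares. The edgeR quasi-likelihood test on the recovered reads gave 555 induced and 473 lowered genes, 460 and 473 of them shared with limma. Because the TM libraries of the 460 and 573 genes lay beyond all 3 controls, leaving out a control could not change their direction. Without control replicate 1, 2 or 3 limma called 14, 13 and 19 induced genes and no lowered gene, with 4382, 4301 and 4286 genes at an unadjusted p below 0.05. Without TM replicate 2 it called 1089 and 2027, and without TM replicate 1 it called 600 and 843. Without control replicate 3, 4 chaperones, 3 PERK targets, 3 chemokines or cytokines, 2 ERAD genes and 1 UPR factor were among the 19, and none of the other lists held a called gene. The chemokines and cytokines were Cxcl2, Ccl20 and Lif. Of these, Cxcl2 and Ccl20 passed the filter on low values only through the TM libraries and so had to be higher there. The genes induced without each of the controls in turn included Hspa5, Herpud1, Ddit3, Creld2, Sdf2l1, Dnajb9, Syvn1, Trib3, Chac1 and Gadd45a.

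The 10 largest increases, among called genes with a mean of at least 5 after TM, belonged to ER protein quality control, to the PERK branch and to chemokines. They were Cxcl2 at 5.01 (SE 0.45), Ccl20 at 4.55 (SE 0.32), Herpud1 at 4.10 (SE 0.10), Ddit3 at 3.90 (SE 0.10), Cxcl1 at 3.72 (SE 0.32), Sdf2l1 at 3.50 (SE 0.11), Derl3 at 3.39 (SE 0.32), Gadd45a at 3.34 (SE 0.14), Creld2 at 2.99 (SE 0.11) and Hspa5 at 2.79 (SE 0.13), as log2 changes. Cxcl2 and Ccl20 passed the filter on low values only through the TM libraries, and with a pseudocount of 1 their changes were 2.51 and 2.72. Values of all 10 genes in each library are drawn with those of other named genes in the plot of values by library.

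**Figure D1:**
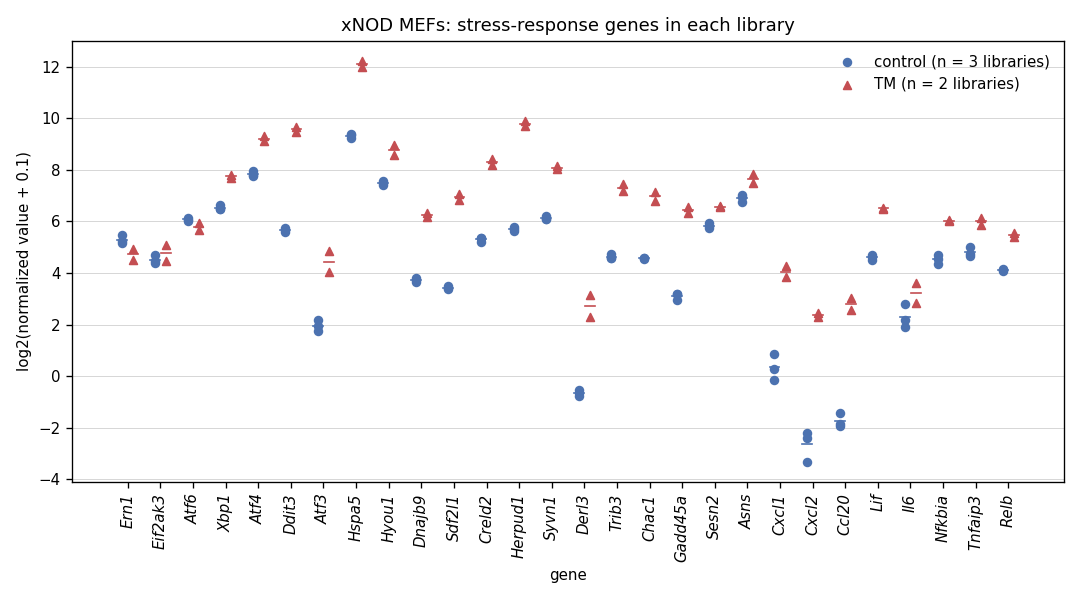
Values of 28 genes in each xNOD library, as log2(value + 0.1), with 3 control points and 2 TM points per gene. For Hspa5 the controls sit at 662, 666 and 599 in linear value and the TM libraries at 4097 and 4828. For Eif2ak3 the range of the TM points overlaps that of the control points.

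Promoters of these 10 genes were searched for the ER stress response element (ERSE), the letters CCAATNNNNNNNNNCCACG to which NF-Y and ATF6 or XBP1 are known to bind, and for the kappaB-like letters GGGNNTTTCC, on both strands. The windows are RefSeq promoters of the reference genome (GRCm38.p6, C57BL/6J alleles), from 250 bases before to 50 bases after the start, and they do not show the NOD alleles. ERSE letters were present in 39 of all 32851 windows (0.119%) and kappaB-like letters in 535 (1.63%). Among the 10 genes, Hspa5, Creld2 and Derl3 held the ERSE letters and Cxcl1, Cxcl2 and Ccl20 the kappaB-like letters, while the windows of Herpud1, Ddit3, Sdf2l1 and Gadd45a held neither. The paper also names ERSEII as an ER stress element. Its letters were not searched, so a window without a match may still hold an ER stress element. The 6 windows with a match are printed to show the shared letters in genes that rose together, 5′ to 3′ on the strand of the gene, which is the plus strand in all 6, with the fixed letters of each match in capitals. The regions are chr2:34771840-34772139 (Hspa5), chr15:88819396-88819695 (Creld2), chr10:75893148-75893447 (Derl3), chr5:90890995-90891294 (Cxcl1), chr5:90903649-90903948 (Cxcl2) and chr1:83116516-83116815 (Ccl20).
Hspa5: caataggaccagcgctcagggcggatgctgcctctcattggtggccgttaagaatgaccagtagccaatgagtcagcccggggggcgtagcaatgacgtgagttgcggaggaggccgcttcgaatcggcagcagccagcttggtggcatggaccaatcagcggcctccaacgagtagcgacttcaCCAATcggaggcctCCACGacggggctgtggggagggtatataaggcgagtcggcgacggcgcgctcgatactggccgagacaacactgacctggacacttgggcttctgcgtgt
Creld2: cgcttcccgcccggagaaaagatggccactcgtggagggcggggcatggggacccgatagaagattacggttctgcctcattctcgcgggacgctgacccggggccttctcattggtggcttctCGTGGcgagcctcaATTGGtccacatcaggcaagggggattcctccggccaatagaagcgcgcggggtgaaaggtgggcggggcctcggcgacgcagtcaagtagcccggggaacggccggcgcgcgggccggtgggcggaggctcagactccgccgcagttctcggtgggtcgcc
Derl3: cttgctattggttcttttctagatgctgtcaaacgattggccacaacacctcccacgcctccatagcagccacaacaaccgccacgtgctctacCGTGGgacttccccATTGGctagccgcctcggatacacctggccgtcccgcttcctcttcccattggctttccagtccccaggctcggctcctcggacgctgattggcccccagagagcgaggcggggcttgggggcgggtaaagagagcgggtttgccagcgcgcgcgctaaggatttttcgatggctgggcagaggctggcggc
Cxcl1: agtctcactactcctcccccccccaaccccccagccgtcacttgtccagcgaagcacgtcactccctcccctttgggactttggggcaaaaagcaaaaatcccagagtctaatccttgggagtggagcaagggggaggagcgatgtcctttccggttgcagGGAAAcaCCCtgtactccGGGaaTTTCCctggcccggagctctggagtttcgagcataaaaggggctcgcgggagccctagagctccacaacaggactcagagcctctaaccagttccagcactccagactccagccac
Cxcl2: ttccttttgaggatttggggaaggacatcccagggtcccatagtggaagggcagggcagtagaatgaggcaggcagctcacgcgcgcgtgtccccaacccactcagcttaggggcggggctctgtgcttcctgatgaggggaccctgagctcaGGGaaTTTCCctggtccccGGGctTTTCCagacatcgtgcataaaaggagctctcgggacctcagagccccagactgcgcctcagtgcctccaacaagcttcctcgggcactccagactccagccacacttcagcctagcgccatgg
Ccl20: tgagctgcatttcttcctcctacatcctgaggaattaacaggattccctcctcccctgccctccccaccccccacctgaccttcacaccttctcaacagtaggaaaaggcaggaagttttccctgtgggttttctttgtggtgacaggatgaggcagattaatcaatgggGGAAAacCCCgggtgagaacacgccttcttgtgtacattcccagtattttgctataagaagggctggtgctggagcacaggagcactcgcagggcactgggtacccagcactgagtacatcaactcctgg

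The match in Hspa5 spanned 65 to 47 bases upstream of the start on the strand of the gene. In Creld2 and Derl3 it lay on the opposite strand, 126 to 108 and 156 to 138 bases upstream. Cxcl1 had kappaB-like letters at 89 to 80 bases (opposite strand) and 71 to 62 bases upstream, Cxcl2 at 97 to 88 and 78 to 69 bases, and Ccl20 at 80 to 71 bases on the opposite strand. Of the 17 ER chaperone genes, 14 had a promoter window and 6 of those (42.9%) held the ERSE letters, namely Calr, Canx, Creld2, Dnajc3, Hsp90b1 and Hspa5. Among the isomerases and oxidases 2 of 11 windows (18.2%) held them, and in chaperones, isomerases and ERAD genes together 10 of 40 (25%). A match is a run of letters, and no binding was measured here.

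Among the sensors and transcription factors of the UPR, 5 of 15 tested genes were induced and none lowered, with a median log2 change of 0.25 against -0.06 over all tested genes. Of all tested genes 3.69% were induced and 4.60% lowered, the shares to set beside this list and those that follow. Ddit3, which encodes CHOP, had values of 48.5, 53.7 and 51.1 in the controls and 820.4 and 706 after TM, a log2 change of 3.90 (SE 0.10, adjusted p = 4.12e-05). Atf4, the factor translated under PERK signalling, went from 226, 246 and 218 to 640.1 and 553, or 1.37 (SE 0.11, adjusted p = 0.00203). For Xbp1, the target of IRE1 splicing, the values were 90.6, 98.5 and 88.3 in controls against 225 and 207 with TM, or 1.22 (SE 0.10, adjusted p = 0.00194). In these genes the groups were far apart and the TM libraries close to each other. Atf3, a stress-induced repressor, had 3.73, 3.28 and 4.49 in controls and 16.4 and 28.6 after TM, a change of 2.48 (SE 0.26, adjusted p = 0.00343), with a wider gap between the TM libraries. Cebpg, a partner of ATF4, rose by 1.31 (SE 0.11). Cebpb, which controls inflammatory genes, had 56.4 and 127 after TM against 31.2, 46.3 and 38.9 and did not pass (adjusted p = 0.0442).

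The sensors themselves did not pass the test. Ern1 had 35.5, 38.2 and 44.7 in the controls and 22.8 and 30.7 after TM (-0.57, adjusted p = 0.0408), and Atf6 65.1, 67.0 and 71.1 in controls against 50.8 and 60.8 with TM (-0.28, adjusted p = 0.0936). The TM libraries of both lay below all controls. Eif2ak3 had 20.6, 22.3 and 26.1 in controls against 22.1 and 33.5 with TM (0.25, adjusted p = 0.362), so that its groups overlapped. With the correction for GC content and transcript length described below, the change was -0.02 for Ern1, 0.10 for Atf6 and 0.49 for Eif2ak3.

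Of 17 ER chaperones and co-factors tested, 10 were induced and none lowered, the median change was 0.96, and both TM libraries exceeded all controls in 15. The shares over all tested genes were 3.69% induced and 27.8% with both TM libraries above all controls. Hspa5, the ER Hsp70 chaperone BiP, had values of 662, 666 and 599 in the controls and 4097 and 4828 after TM, a log2 change of 2.79 (SE 0.13, adjusted p = 0.000377). Sdf2l1, a partner of the ERdj co-chaperones, went from 10.4, 11.1 and 10.5 to 132 and 113, or 3.50 (SE 0.11, adjusted p = 8.14e-05). For Creld2, a secreted ER stress protein, the values were 40.9, 40.7 and 36.7 in controls against 289.8 and 340.3 with TM, or 2.99 (SE 0.11, adjusted p = 0.000157). In all 3 the lowest TM value was several times the highest control. Dnajb9, an Hsp40 co-chaperone of BiP, was at 12.5, 14 and 13.1 in controls and at 80.6 and 71.6 after TM, or 2.52 (SE 0.11, adjusted p = 0.000302). Smaller increases were those of Hsp90b1, the ER Hsp90 (1.89, SE 0.13), Manf, a secreted ER factor (1.75, SE 0.10), Dnajc3, also a BiP co-chaperone (1.33, SE 0.13), Hyou1, a nucleotide exchange factor of BiP (1.27, SE 0.14), and Calr, the lectin chaperone calreticulin (0.95, SE 0.13). Its membrane-bound relative Canx, with 408, 380.2 and 376 in controls against 482 and 562 with TM, was at 0.43 and did not pass (adjusted p = 0.0303).

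Disulfide isomerases and oxidases form and shuffle disulfide bonds in the ER. They held 6 induced genes of 13 (3.69% over all tested genes) and none lowered, with a median of 0.53. Pdia4 had 156, 157 and 151 in the controls and 430.4 and 481 after TM, a log2 change of 1.56 (SE 0.09, adjusted p = 0.000833), and Pdia6 had 267, 295 and 254 in controls against 768 and 782 with TM, or 1.51 (SE 0.10, adjusted p = 0.00134). Ero1lb (now Ero1b), an oxidase that recharges the isomerases, went from 2.92, 2.44 and 3.03 to 9.10 and 10.9, or 1.80 (SE 0.18, adjusted p = 0.00322). Each TM library was above each control in these genes. Pdia3, Erp44 and Txndc11 completed the induced members, with changes of 1.14, 0.84 and 0.67.

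ERAD removes misfolded proteins from the ER through a membrane complex built on the ubiquitin ligase Syvn1 (HRD1) and its partner Sel1l. Of 19 genes, 7 were induced (3.69% over all tested genes) and none lowered, with a median of 0.15. Herpud1, an organiser of that complex, had 49.2, 54.4 and 51.8 in the controls and 948 and 833 after TM, a log2 change of 4.10 (SE 0.10, adjusted p = 4.12e-05). Syvn1 had 73.7, 68.0 and 68.4 in controls against 281 and 259 with TM, or 1.95 (SE 0.09, adjusted p = 0.000377). Derl3, a derlin of the channel, was barely detected in controls, at 0.585, 0.480 and 0.541, and was at 8.86 and 4.86 after TM, or 3.39 (SE 0.32, adjusted p = 0.00284). Sel1l, Selenos, Edem1 and Derl1 were induced with changes of 0.99, 1.06, 0.81 and 0.73. Edem3 had 22.1, 30.9 and 32.0 in controls and, as given above, very unlike values in the TM libraries, and its change of -1.84 had an SE of 0.76 and did not pass (adjusted p = 0.108).

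The targets of the PERK, ATF4 and CHOP branch included 9 induced genes of 16 (3.69% over all tested genes) and none lowered. Their median was 1.01, or 0.94 without Fgf21, which passed the filter only through its TM values. Gadd45a, a growth arrest and DNA damage gene, had 7.56, 9.04 and 8.97 in controls and 80.2 and 94.5 after TM, a log2 change of 3.34 (SE 0.14, adjusted p = 0.000238). Trib3, a pseudokinase that dampens ATF4 signalling, went from 26.9, 24.0 and 23.8 to 174 and 146, or 2.67 (SE 0.12, adjusted p = 0.000302). Chac1, which degrades glutathione, had 23.7, 23.7 and 23.5 in controls against 143 and 112 with TM, or 2.42 (SE 0.12, adjusted p = 0.000435). The controls of these genes lay close together and the TM values well above them. Ppp1r15a (GADD34), the phosphatase subunit that ends the PERK signal, rose by 1.56 (SE 0.09). Fgf21, a secreted metabolic hormone, was at 0.0900, 0.120 and 0.541 in controls against 1.83 and 1.56 with TM and did not pass (2.58, adjusted p = 0.0212).

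ATF4 is also known to raise amino acid supply. In that list 5 of 19 tested genes were induced (3.69% over all tested genes) and none lowered, with a median of 0.36. Slc3a2, the shared chain of several amino acid transporters, had 196, 192 and 179.8 in controls against 482 and 403 with TM (log2 change 1.22, SE 0.11, adjusted p = 0.00271), and Slc7a11, the cystine transporter that pairs with it, had 8.68, 9.04 and 10.7 in controls against 19.7 and 22.6 with TM (log2 change 1.15, SE 0.14, adjusted p = 0.00484). Psph, of serine synthesis, Mthfd2, of mitochondrial folate metabolism, and Slc1a4, a neutral amino acid transporter, rose by 1.15, 0.83 and 0.77. Asns, asparagine synthetase, had 129.5, 123 and 109 in controls against 227 and 178 with TM and did not pass (0.74, adjusted p = 0.0114). Slc1a5, a glutamine transporter, was at 32.4, 30.6 and 107 in the controls in replicate order and at 22.6 and 23.5 after TM, so that control replicate 3 alone stood high, and it did not pass. Of 20 cytosolic tRNA synthetases, which charge tRNAs for translation, Cars, Tars, Yars, Sars and Gars were induced, with changes of 0.92, 0.85, 0.85, 0.72 and 0.66, none was lowered, and the median was 0.48.

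Chemokines and cytokines, secreted signals that draw and stimulate leukocytes, held 19 listed genes of 24 members. Of these, 13 reached 0.5 in at least 2 controls, and 5 of the 13 were induced (3.69% over all tested genes) and none lowered. Their median was 0.93, or 0.21 with the correction for GC content and length. The other 6, Cxcl2, Cxcl3, Cxcl10, Ccl20, Csf2 and Il1a, passed the filter on low values only through the TM libraries and so had to be higher there. They held 3 more induced genes, which makes 8 of 19, and the median over all 19 of 1.76 (1.04 with the correction) rests in part on them. Cxcl2, a neutrophil chemokine, had 0.0900, 0.120 and 0 in controls and 5.37 and 4.80 after TM, which rest on 2, 3 and 0 reads and on 88 and 86 reads. The log2 change of 5.01 (SE 0.45, adjusted p = 0.0026) depends on the pseudocount and was 2.51 with a pseudocount of 1. The ratio of its read rates was 66.7, with an exact 95% interval of 28 to 208 (Clopper-Pearson) that covers counting error only. Ccl20, a chemokine for lymphocytes and dendritic cells, had 0.180, 0.160 and 0.270 in controls against 8.18 and 5.86 with TM, from 4, 4 and 5 reads against 134 and 105 (log2 change 4.55, SE 0.32, adjusted p = 0.00144). With a pseudocount of 1 its change was 2.72, and the ratio of its read rates was 35.2 (20.2 to 67.2). Cxcl1, also a neutrophil chemokine, went from 1.12, 1.72 and 0.811 to 19.1 and 14.3, or 3.72 (SE 0.32, adjusted p = 0.0022). All 3 were nearly silent in control cells and detected in each TM library. Lif, a cytokine of the IL-6 family, had 22.5, 24.8 and 26.1 in controls against 88.6 and 92.9 with TM, or 1.89 (SE 0.10, adjusted p = 0.000645). The monocyte chemokine Ccl2 had 32.6, 36.2 and 39.0 in controls and 185 and 84.0 after TM, a change of 1.80 (SE 0.31, adjusted p = 0.00943), and the TM libraries differed widely in it. For Csf2 (GM-CSF), with 1, 1 and 2 reads in controls against 19 and 15, the ratio was 16.3 (5.81 to 63.2), and with a pseudocount of 1 it was no longer called (0.91, adjusted p = 0.0108 by limma). Csf2, Cxcl5 and Ccl7 made up the rest of the induced members, with 2.75, 2.03 and 1.77. With the correction for GC content and length 4 of the 19 stayed above the threshold.

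NF-kB is held in the cytosol by inhibitors and drives many of these chemokines. Among 18 of its subunits and feedback regulators 3 were induced (3.69% over all tested genes) and none lowered, with a median of 0.46. They were the inhibitor Nfkbia, with 20.2, 23.6 and 25.8 in controls against 63.9 and 65.8 with TM (log2 change 1.49, SE 0.13, adjusted p = 0.0022), the subunit Relb, with 18.0, 16.8 and 17.3 in controls against 47.2 and 41.8 with TM (log2 change 1.35, SE 0.11, adjusted p = 0.00194), and the ubiquitin-editing inhibitor Tnfaip3 (A20), with 26.7, 25.2 and 32.2 in controls against 58.2 and 70.6 with TM (log2 change 1.20, SE 0.15, adjusted p = 0.00461). In each the TM libraries lay above all controls. Nfkb1, the p50 precursor, had 63.8, 64.2 and 62.8 in controls against 67.7 and 85.4 with TM and did not pass (0.26, adjusted p = 0.138).

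Immediate early genes are transcribed within minutes of a stimulus. Of 18, 5 were induced and 1 was lowered, against 3.69% and 4.60% of all tested genes, with a median of 0.20. Myc had 138, 124 and 128 in controls against 335 and 283 with TM (log2 change 1.25, SE 0.11, adjusted p = 0.00232) and Ier2 71.5, 77.2 and 76.4 in controls against 160.4 and 156 with TM (log2 change 1.08, SE 0.09, adjusted p = 0.00204), while Egr1, Junb and Klf6 rose by 1.07, 0.78 and 0.65. Fosl1, an AP-1 subunit, had 25.2, 25.2 and 28.4 in controls against 13.1 and 16.6 with TM, a change of -0.83 (SE 0.14, adjusted p = 0.00937) that edgeR did not call. With the correction for GC content and length no immediate early gene was lowered. Apoptosis regulators (15 tested, median 0.03) and interferon-stimulated genes (10 tested, median -0.09) held no called gene by limma or by edgeR, with 8 and 5 genes at an unadjusted p below 0.05 by limma, and 23 replication and mitosis genes held 1, Cdc6, a loader of the replicative helicase, at 1.11 (SE 0.15). Casp4, an inflammatory caspase, was at 0.180, 0.0400 and 0.162 in controls and 1.53 and 0.670 after TM without passing (2.36, adjusted p = 0.0227). Like Fgf21, it passed the filter only through its TM values and so had to be higher there. Without Casp4 the median of the apoptosis regulators was -0.01.

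**Figure D2:**
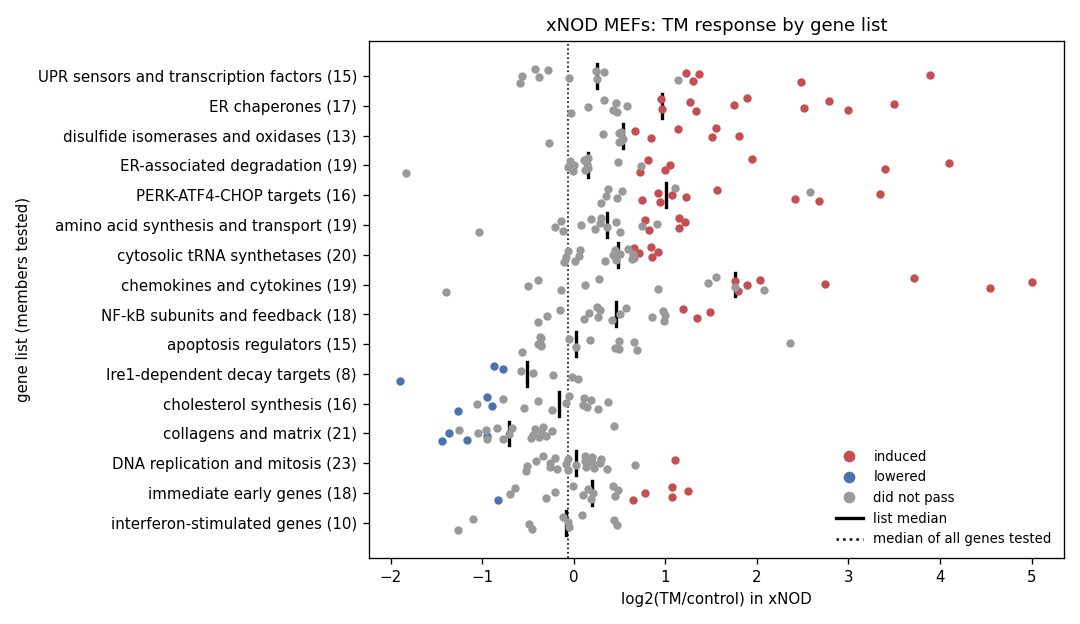
Log2 changes (TM minus control) of the tested members of 16 gene lists in xNOD, with a mark for each list median and a line at the median of all tested genes, -0.06. Medians of chaperones (0.96), PERK targets (1.01) and chemokines (1.76, with 6 of 19 members tested only through their TM values) lie to the right, and collagens and matrix genes (-0.70) to the left.

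Lowered genes were in large part long ones. Their longest annotated transcript had a median of 5703 bases, against 2496.5 bases for the induced genes and 3483 bases for all tested genes. The 10 largest decreases, among called genes with a mean of at least 5 in controls, were those of Lrrc15 (-3.05), Igsf9b (-2.77), Sned1 (-2.72), Fam168a (-2.49), Pkd1 (-2.47), Prrc2c (-2.33), Hspg2 (-2.30), Hivep3 (-2.24), Hipk2 (-2.13) and Nfatc3 (-2.11). Their transcripts measured 5310 bases in Lrrc15, the shortest, to 16144 bases in Igsf9b. Lrrc15, a membrane protein of activated fibroblasts, had values of 18.4, 18.5 and 22.9 in the controls and 1.34 and 3.91 after TM (SE 0.40, adjusted p = 0.00511). Hspg2, the basement membrane proteoglycan perlecan, had 1817, 1917 and 2384 in controls against 316 and 536 with TM (SE 0.24, adjusted p = 0.00343), and Pkd1, which encodes polycystin-1, 251, 281 and 344 in controls against 33.5 and 81.1 with TM (SE 0.35, adjusted p = 0.00591). Nfatc3, a calcium-regulated transcription factor, had 28.8, 31.9 and 30.4 in controls against 5.44 and 8.93 with TM (SE 0.21, adjusted p = 0.00303). In these genes TM replicate 1 was the lower of the TM libraries, and all TM values lay below all controls. Once GC content and length were corrected for, only Lrrc15 (-2.69), Prrc2c (-1.66), Hspg2 (-1.17) and Nfatc3 (-1.86) of the 10 were still called. Igsf9b, Sned1, Fam168a, Pkd1, Hivep3 and Hipk2 were at -1.84, -1.91, -2.05, -1.36, -1.26 and -1.40, with an adjusted p of 0.0106 to 0.0225.

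With genes cut into 10 equal bins of transcript length, the median change ran from 0.32 in the bin of the shortest transcripts to -0.60 in that of the longest, and the share of lowered genes from 0.0815% to 15.1%. Spearman's rho between length and change, over 9411 genes that share the same libraries, was -0.49 in xNOD, and it was -0.56 for TM replicate 1 and -0.34 for TM replicate 2 against the mean of the controls. The same measure was -0.05 in B6 and 0.30 in NOD, and from -0.14 to 0.18 in the other 4 crosses. Single TM libraries of those crosses ranged from -0.43 to 0.28. A control minus the other controls of its genotype gave -0.20 to 0.34 in xNOD, with 0.34 for replicate 3, and -0.70 to 0.63 in the other crosses, so that libraries of equal treatment also differed along length. With GC content, rho of the mean change was -0.29 in xNOD, -0.53 in B6 and -0.48 in NOD, and from -0.61 to -0.10 in the other crosses. Median GC content was 54.3% in the lowered and 45.9% in the induced genes of xNOD. After the correction for GC content and length, 193 genes were induced and 125 lowered in xNOD, 141 and 91 of them shared with the calls above. The direction was kept in 436 of 452 induced and 564 of 571 lowered genes that had a length. The cause of the relations with length and GC content was not tested.

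**Figure D3:**
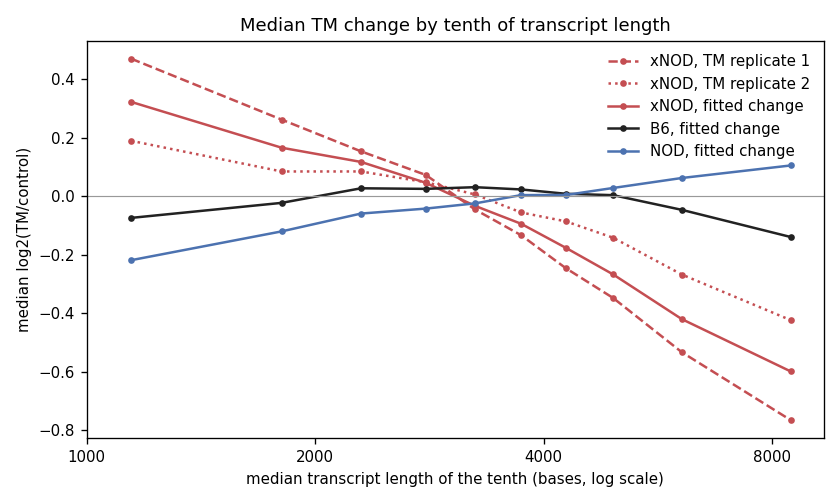
Median log2 change (TM minus control) in 10 bins of transcript length, from the shortest to the longest, for xNOD, for each xNOD TM library, and for the founders B6 and NOD. The xNOD line falls from 0.32 to -0.60, more steeply in TM replicate 1 (0.47 to -0.77) than in TM replicate 2 (0.19 to -0.42), while NOD rises from -0.22 to 0.10.

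Collagens and matrix proteins, the main secreted load of fibroblasts, had a median change of -0.70. Of 21 tested genes 4 were lowered (4.60% over all tested genes) and none induced. Fn1 (fibronectin) had 7509, 8282 and 8450.3 in controls and 2601 and 3397 after TM, a log2 change of -1.44 (SE 0.18, adjusted p = 0.00497). Col6a3, a collagen VI chain, had 662, 732 and 782 in controls against 219 and 363 with TM, or -1.36 (SE 0.21, adjusted p = 0.0075). Bgn, the proteoglycan biglycan, had 2667, 2781 and 2703 in controls against 1219 and 1201 with TM, or -1.17 (SE 0.12, adjusted p = 0.00321). Timp3, a metalloproteinase inhibitor, was the other lowered member, at -0.95. The transcripts of this list had a median length of 5348 bases. With the correction for GC content and length the list median was -0.30 and 2 genes stayed lowered, Bgn at -1.26 and Timp3 at -0.85, whereas Fn1 was at -0.67 and Col6a3 at -0.45 without passing.

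IRE1 is known to cleave a set of ER-bound mRNAs. Of 8 such targets 3 were lowered (4.60% over all tested genes) and none induced, with a median of -0.51. Scara3, a scavenger receptor, had 14.2, 13.6 and 13.4 in controls and 3.73 and 3.52 after TM (log2 change -1.89, SE 0.13, adjusted p = 0.00134), and the change with the correction for GC content and length was -1.64. Col6a1 and Pdgfrb, at -0.88 and -0.77, passed only without that correction. Bloc1s1, the best known target, had 18.0, 16.8 and 19.3 in controls against 16.8 and 20.5 with TM, and its groups overlapped. In cholesterol synthesis 3 of 16 were lowered, against the same 4.60%, and none induced, with a median of -0.16. Among the lowered members, the sterol reductase Dhcr7 had 16.4, 14.8 and 14 in controls against 8.55 and 7.04 with TM, a log2 change of -0.95 (SE 0.15, adjusted p = 0.00715).

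To set xNOD beside its parents, changes within each table were put into 1 limma fit of 14 libraries over 12579 genes. Founder and F1 tables were scaled separately, so only changes, not levels, were compared between them. In that fit 359 genes (2.85%) were induced and 105 (0.835%) lowered in B6, and 334 (2.66%) and 91 (0.723%) in NOD. The 460 and 573 calls of xNOD are those of its own fit of 5 libraries, given above, and not of the fit of 14. These fits estimate the spread from unlike numbers of libraries, so the counts and overlaps set calls of unlike power side by side. Of the 460 induced in xNOD, 186 (40.4%) were induced in B6, which is 52.1% of the B6 genes tested in both, and 152 (33.0%) in NOD, which is 45.6% of the NOD genes. Of the 573 lowered, 72 (12.6%) were lowered in B6 and 34 (5.93%) in NOD, or 68.6% and 37.4% of the lists of the parents. Read from the side of the parents, 235 genes were induced in both, all of them had a positive change in xNOD, 180 of at least 1.5 fold, and 141 (60.0%) were called. The xNOD change lay below that of both parents for 562 of the 573 lowered genes (98.1%), which the selection on a low xNOD value favours. Over all genes that share was 48.7%.

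Hspa5, Herpud1 and Xbp1 rose in the cross and had positive changes of a similar size in both parents. Hspa5 was at 2.79 in xNOD, 2.85 in B6 and 2.52 in NOD, with a difference from B6 of -0.06 (95% interval -0.44 to 0.32) and from NOD of 0.27 (-0.09 to 0.64). For Herpud1 the changes were 4.10, 3.96 and 4.22, and the differences 0.14 (-0.14 to 0.42) and -0.13 (-0.39 to 0.14). Xbp1 gave 1.22, 1.24 and 1.15, with differences of -0.02 (-0.32 to 0.28) and 0.07 (-0.22 to 0.35). None of these differences passed an adjusted p of 0.05, although with the correction for GC content and length that of Herpud1 from NOD did (-0.40, adjusted p = 0.0476). Sdf2l1 was nearer to B6, with 3.50 in xNOD against 3.55 in B6 and 2.90 in NOD, and its response was higher than that of NOD by 0.60 (0.23 to 0.97, adjusted p = 0.034). With the correction for GC content and length the latter difference was 0.13 and did not pass. The list medians of chaperones were 0.96 in xNOD, 1.03 in B6 and 0.73 in NOD, and those of PERK targets 1.01, 0.79 and 0.88.

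**Figure D4:**
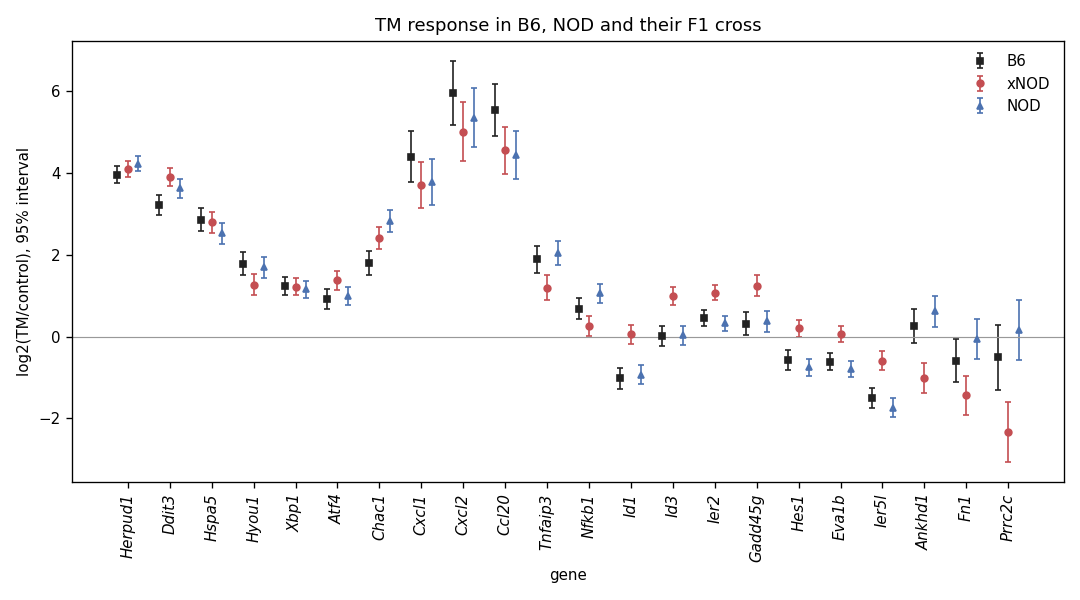
Log2 change (TM minus control) with its 95% interval for 22 genes in B6, xNOD and NOD, from the fit of 14 libraries. The intervals of Hspa5, Herpud1 and Xbp1 overlap in all 3 genotypes.

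No gene differed between xNOD and B6 in its response to TM at an adjusted p below 0.05 (0 of 12579, 0.00%) by limma or by edgeR, with 2314 genes at an unadjusted p below 0.05 by limma and a smallest adjusted p of 0.142. The 95% interval of a difference, not adjusted for the number of genes, was 0.49 wide to either side in the median gene. Differences well above that width could also miss the adjusted threshold, as that of Id1, given below, did. Leaving out xNOD TM replicate 2 gave 2105 genes, and leaving out NOD control replicate 1 or 3, which only feed the estimate of the spread here, gave 198 and 199. Against NOD, 705 genes (5.60%) responded higher in xNOD and 1298 (10.3%) lower. With median-of-ratios scaling this split was 949 and 1087, with edgeR 880 and 930, and with the correction for GC content and length 222 and 366. Treating same-numbered libraries as a block, though the labels do not tie them, left 0 genes. Genes with the higher response had a median transcript of 1664 bases and those with the lower response of 6250.5 bases. No gene passed without xNOD control replicate 3, NOD TM replicate 1 or NOD TM replicate 2, 8 passed without NOD control replicate 1, and 4227 without xNOD TM replicate 2, 4181 without NOD control replicate 3, 415 without xNOD TM replicate 1, and 1249 and 1084 without xNOD control replicate 1 or 2.

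Against the mean of the parents, taken over their log2 changes, 571 genes (4.54%) responded higher and 1139 (9.05%) lower. The split was 768 and 752 with median-of-ratios scaling, 616 and 643 with edgeR and 124 and 275 with the correction for GC content and length. The same block left 0 genes here too. The number of genes was 0 without xNOD control replicate 1 or 3, B6 control replicate 2 or 3, or B6 TM replicate 1, 7 without NOD TM replicate 2 and 34 without xNOD TM replicate 1, and it was 3996 without xNOD TM replicate 2 and 3805 without NOD control replicate 3. It was 192 without xNOD control replicate 2, 406 without NOD TM replicate 1, 505 without B6 TM replicate 3 and 1051 without NOD control replicate 1. These comparisons share the xNOD libraries and are not independent of each other. The parents did not differ from each other in any gene (0 of 12579, 0.00%) by limma or by edgeR, with 343 genes at an unadjusted p below 0.05 by limma and 21 called genes without NOD control replicate 3. The smallest p between the parents belonged to Chac1, with a change of 1.79 in B6 and 2.83 in NOD and 2.42 in xNOD, and the difference between the parents was -1.03 (-1.43 to -0.63, adjusted p = 0.869).

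A few genes led these differences. Id1, a helix-loop-helix inhibitor downstream of BMP signals, had 67.9, 77.0 and 69.7 in xNOD controls and 69.2 and 79.4 after TM. In B6 it had 73.4 and 72.4 in controls and 37.6 and 34.2 after TM, and in NOD 146 and 122 in controls against 64.5, 71.3 and 74.1 with TM. The groups of both parents were well apart, with TM below control, while those of xNOD overlapped. The response of Id1 in xNOD was higher than the mean of the parents by 1.03 (0.74 to 1.32, adjusted p = 0.0168) and higher than that of NOD by 0.98 (adjusted p = 0.02), and the difference from B6, 1.07 (0.73 to 1.42), did not pass (adjusted p = 0.142). Id3, of the same family, had 104, 125 and 114 in controls and 224 and 227 after TM in xNOD, where it was induced (log2 change 0.98, SE 0.11, adjusted p = 0.00344). With the correction for GC content and length that change was 0.75 and did not pass (adjusted p = 0.0169 by limma). In B6 Id3 had 100.3 and 104 in controls against 103 and 102 with TM, and in NOD 153 and 151 in controls against 139, 176 and 153 with TM, with no visible shift in either. The response was higher than the mean of the parents by 0.97 (0.69 to 1.25, adjusted p = 0.0168) and higher than in NOD by 0.96 (adjusted p = 0.02).

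Ier5l, an immediate early response gene, had 45.9, 45.0 and 37.7 in controls against 26.9 and 29.8 with TM in xNOD. Its values were 52.9 and 51.8 in controls against 19.6 and 17.2 with TM in B6 and 56.7 and 57.4 in controls against 16.4, 17.2 and 17.4 with TM in NOD. TM libraries lay below controls in all 3 genotypes, with the smallest gap in xNOD, and the response was higher than in NOD by 1.15 (0.83 to 1.48, adjusted p = 0.02). Hes1, a Notch target and repressor, had 39.7, 42.5 and 37.5 in controls against 47.0 and 44.3 with TM in xNOD, 49.1 and 43.5 in controls against 30.6 and 31.6 with TM in B6, and 63.3 and 57.6 in controls against 32.6, 38.0 and 36.6 with TM in NOD. Its change within xNOD did not pass (0.20, adjusted p = 0.176) and was -0.20 with the correction for GC content and length, whereas the TM libraries of both parents lay below their controls, and the response differed from that of NOD by 0.95 (adjusted p = 0.02). Eva1b and Trp53i13, a p53-inducible gene, differed from NOD in the same direction, by 0.87 and 1.06 (adjusted p = 0.02 and 0.02). Ankhd1, a long ankyrin repeat gene, went the other way, with 36.7, 37.6 and 39.8 in controls against 16.4 and 21.4 with TM in xNOD, 64.9 and 64.7 in controls against 78.8 and 76.1 with TM in B6 and 36.5 and 62.9 in controls against 76.1, 75.1 and 70.1 with TM in NOD. The NOD controls lay far apart. The difference in response from NOD was -1.64 (-2.17 to -1.10, adjusted p = 0.02). With the correction for GC content and length, Ier5l and Ankhd1 still differed from NOD (0.90 and -1.04, adjusted p = 0.0148 and 0.0147), while Id1, Id3, Hes1, Eva1b and Trp53i13 did not, at 0.51, 0.53, 0.49, 0.41 and 0.51. None of these 7 passed against NOD without xNOD control replicate 3.

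**Figure D5:**
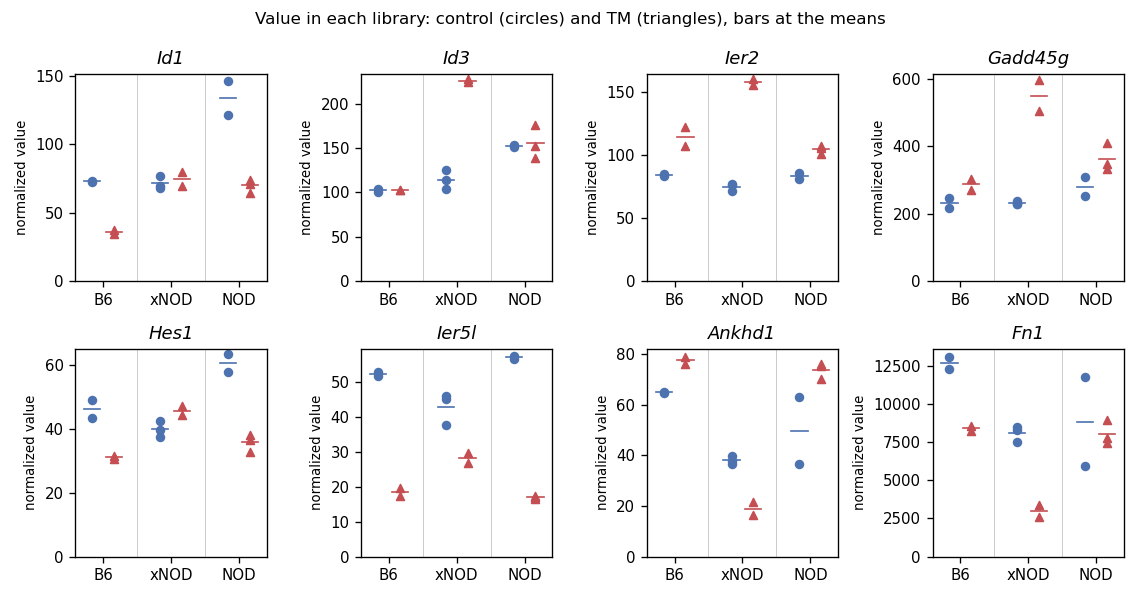
Values of 8 genes per library in B6, xNOD and NOD, controls beside TM, on a linear axis. Founder and F1 tables were scaled separately, so only the shift within a genotype can be read, such as that of Id1, whose TM points lie below the controls in B6 and NOD and overlap them in xNOD.

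Nlrp3, the sensor of an inflammasome, was too low for the test within xNOD, with 0.315, 0.400 and 0.487 in controls and 0.550 and 0.391 after TM. In B6 its values were 0.230 and 0.304 in controls against 2.55 and 2.72 with TM, and in NOD 0.143 and 0.126 in controls against 1.82, 1.20 and 1.49 with TM. The groups of both parents were apart, with TM above control, while those of xNOD overlapped. It entered the fit of 14 libraries only through the TM values of the parents, with 1 of the 5 xNOD values at 0.5 or more, so no test of its difference is given. In the NF-kB list the xNOD response was lower than that of NOD in 3 of 18 genes and higher in none, against 10.3% and 5.60% of all genes. Such counts were not particular to it, since 5 of 19 genes of amino acid supply and 5 of 21 collagens and matrix genes were also lower and none higher, and 4 of 18 immediate early genes were lower and 3 higher. Tnfaip3 was at 1.20 in xNOD, 1.89 in B6 and 2.05 in NOD (difference from NOD -0.85, adjusted p = 0.0229), and Nfkb1 at 0.26, 0.68 and 1.06 (-0.80, adjusted p = 0.02). Of the UPR sensors and factors 4 of 15 were lower and none higher than in NOD. Ern1 differed by -1.0 (-1.59 to -0.41, adjusted p = 0.0302) and Atf6 by -0.75 (-1.08 to -0.42, adjusted p = 0.02). Their transcripts measure 6946 and 7246 bases, and with the correction for GC content and length the differences were -0.44 and -0.24 and did not pass. Chemokines and cytokines were lower in 1 of 19 and chaperones higher in 3 of 17.

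Compared with the mean of the other 4 crosses, which also have a B6 mother, xNOD differed in no gene (0 of 12803, 0.00%) by limma or by edgeR, with 2038 genes at an unadjusted p below 0.05 by limma and a smallest adjusted p of 0.160. Leaving out xNOD TM replicate 2 gave 331 genes. The gene with the smallest p was Tnfaip3, with 1.20 in xNOD against 1.90 in x129, 3.12 in xCAST, 1.60 in xNZO and 1.81 in xWSB, a difference of -0.91 (-1.25 to -0.57). Id1 was at 0.05 in xNOD and at -0.82 to -0.38 in the other crosses, with a difference of 0.66 (0.10 to 1.21, adjusted p = 0.259). Nlrp3 was at 0.19 in xNOD and at 0.52 to 3.12 in the others. Hspa5 ranged from 2.74 to 3.14 in the other crosses, on either side of the 2.79 of xNOD.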

How the data were processed

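Sequencing of mRNA in 5 xNOD libraries, 9 libraries of the parents and 23 of other crosses was used. The authors aligned single-end reads with TopHat 1.4.1 to strain-specific genomes, normalized counts with TMM in edgeR and removed outlying libraries by the screen described above. The submitters' notes name build GRCm38 (mm10). The deposited tables go by the name FPKM, yet within a library all values come out as whole reads once divided by a fixed step (tolerance 0.05). The deposited signal is therefore read as TMM-scaled reads per gene, not divided by length. Strand use in counting is not stated, so overlapping or antisense genes and close paralogs may share reads. The 3 lines naming no gene (20.5% to 21.2% of xNOD reads) were dropped. 12639 of 12803 genes were named from GENCODE M21, which also gave transcript lengths.

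Values were tested with limma 3.58.1 (trend, R 4.3.3) at the thresholds given above, designed for FPKM and kept, with edgeR 4.0.16 on recovered reads as an alternative, and plotted with Python 3.11.15. Named genes were the 10 largest called changes each way (mean of at least 5 in the higher group), the 6 smallest p of each comparison, the UPR sensors and factors, and up to 4 members per list. Values of some members are not reported here. Lists and members were chosen with earlier results of these data known.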

Additional observations from a re-analysis of the deposited data

Results flagged for a closer look

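The genes below had a response to TM whose difference between genotypes passed its own test in the fit of 14 libraries, among the 6 smallest p of each comparison. Against NOD, the log2 response of xNOD was higher by 1.15 for Ier5l, 0.87 for Eva1b, 0.95 for Hes1, 0.96 for Id3 and 1.06 for Trp53i13, and the difference was -1.64 for Ankhd1. Adjusted p was 0.0200 in all 6. Against the mean of the parents it was higher by 1.03 for Ier5l, 1.03 for Id1, 0.97 for Id3, 0.77 for Eva1b and 0.86 for Hes1, and the difference was -1.46 for Ankhd1, with an adjusted p of 0.0168 to 0.0234. No value of this kind was lost with edgeR, a pseudocount of 1 or median-of-ratios scaling, and each was lost with the replicate block and without xNOD control replicate 3. With the correction for GC content and length, Eva1b, Hes1, Id3 and Trp53i13 against NOD and Id1 and Eva1b against the mean of the parents no longer passed.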

How the results depend on the processing

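The induced and lowered counts of xNOD (460 and 573) stayed within 1.5 times with a pseudocount of 1, no filter, a mean of at least 2, median-of-ratios scaling, edgeR and no minimum fold. They were 24 and 4 with no trend in the prior variance, 957 and 1523 at FDR 5%, and 544 and 922 in 1 fit over all F1 libraries. Leaving out each library gave 13 to 1089 induced and 0 to 2027 lowered genes. The correction for GC content and length, chosen after seeing the data, gave 193 and 125, and 325 and 428 in the fit over all F1 libraries.

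The numbers that same-numbered libraries share were tried as a replicate block. With the replicate block 470 genes were induced and 1036 lowered in xNOD, and 72 and 27 with the correction for GC content and length besides. The difference from NOD and from the mean of the parents held 0 genes with the replicate block, with or without that correction. Same-numbered xNOD control and TM libraries correlated in their deviations at 0.34 and 0.10, with only 2 such pairs, and the labels do not tie them, so a block was not taken as the design.

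The difference from B6 held 1 gene with no trend and 0 to 2105 when a library was left out. That from NOD (2003) held 588 with the correction for GC content and length, 823 with no trend, 0 at FDR 1% and 0 to 4227 when a library was left out. That from the mean of the parents (1710) held 399 with the correction, 1 with no trend, 0 at FDR 1% and 0 to 3996 when a library was left out. The difference between the parents held 0 to 21 genes and that from the other crosses 0 to 331. The cause of these shifts was not tested. Of the single-gene results, 1918 kept direction and side of the threshold, 346 dropped below it, 65 rose past it and 36 changed sign, none of them in a gene called in xNOD.

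Sign changes with the correction for GC content and length were -0.23 for Id1, -0.074 for Eva1b, -0.20 for Hes1, 0.012 for Pcdh18, 0.090 for Recql4, 0.098 for Atf6, 0.11 for Csf1r, -0.075 for Krt19 and 0.17 for Des. With that correction and the replicate block they were -0.24 for Id1, -0.077 for Eva1b, -0.22 for Hes1, 0.046 for Pcdh18, 0.070 for Recql4, 0.026 for Ern1, 0.10 for Atf6, 0.018 for Nfe2l1, 0.19 for Csf1r and 0.14 for Des. With the replicate block alone they were 0.18 for C1qa, with median-of-ratios scaling 0.0012 for Mbtps2 and 0.038 for Des, and with edgeR 0.032 for Des. Leaving out each xNOD library in turn gave ranges that crossed 0 for Id1 (-0.046 to 0.15), Eva1b (-0.011 to 0.14), Recql4 (-0.58 to 0.027), Rel (-0.16 to 0.50), Rela (-0.060 to 0.29), Eif2ak3 (-0.049 to 0.55), Mbtps2 (-0.21 to 0.12), C1qa (-1.94 to 0.23), Krt19 (-0.099 to 0.34) and Des (-0.12 to 0.10).

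The counts of list members that reach 0.5 in at least 2 controls were chosen after seeing the data. Depth limits low genes. In xNOD, 13 to 68 of the 12803 listed genes had no read in a library.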

Other observations

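Some hosts of small nucleolar RNAs, outside the lists, were picked after their values were seen. How many hosts were tested in all was not counted, so they stand for themselves only. Zfas1 had 32.4, 35.6 and 31.0 in xNOD controls and 138 and 131 after TM (log2 change 2.03, SE 0.10, adjusted p = 0.0004), Snhg12 26.4, 27.9 and 23.6 in controls against 130.2 and 89.5 with TM (log2 change 2.06, SE 0.17, adjusted p = 0.00212), and Taf1d 23.6, 22.8 and 17.9 in controls against 80.9 and 77.5 with TM (log2 change 1.89, SE 0.14, adjusted p = 0.00164). Rabggtb, Snhg17, Epb41l4aos and Gas5 rose by 1.62, 1.35, 1.28 and 1.20, while Snhg20 (0.60, adjusted p = 0.0339) and Snhg3 (0.35, adjusted p = 0.485) did not pass. All TM values of the hosts that rose were above all controls. Counting is not stated to use strand, so overlapping transcripts may share these reads.

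Several regulators rose as well. Nfil3, a bZIP repressor, had 25.2, 25.7 and 25 in controls against 129.7 and 108 with TM (log2 change 2.22, SE 0.11, adjusted p = 0.0004), and Hey2, a Notch-responsive repressor, 2.11, 2.32 and 1.41 in controls against 12 and 9.66 with TM (log2 change 2.44, SE 0.26, adjusted p = 0.00343). Piga, of GPI anchor synthesis, had 4.86, 5.08 and 5.14 in controls against 23.8 and 27.3 with TM (log2 change 2.32, SE 0.13, adjusted p = 0.00069). Secreted products included Ptx3, a long pentraxin, at 1.76, and Adm2, an adrenomedullin peptide, at 2.00. Among lowered genes, Retreg3, an ER-phagy receptor, had 22.5, 24.6 and 27.8 in controls and 4.03 and 8.21 after TM (log2 change -2.09, SE 0.29, adjusted p = 0.00553), and -2.01 with the correction for GC content and length. Ubap2l, a stress granule protein, had 150.0, 149 and 154 in controls against 49.8 and 55.7 with TM (log2 change -1.52, SE 0.09, adjusted p = 0.000833), and -1.38 with that correction.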
